A study of Mus musculus with 9 samples.

Results

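Cells carrying CD11b were sorted from the spleens of tumor-bearing mice and profiled either fresh, at 0 h, or after 24 h of incubation in complete medium. The 3 arrays whose titles give 24 as the time are called cultured and the 3 whose titles give 0 are called fresh, so the comparison holds 6 of the 9 arrays of the series. All mice were females of 8 to 12 weeks, and the RNA was read on Affymetrix MG-U74Av2 oligonucleotide arrays, 1 signal per probe set and array. The other 3 arrays hold CD11b+ spleen cells of tumor-free mice, which were not cultured, and their signals are given beside some genes for reference. The tumor, the mouse strain, the make-up of the medium and the number of mice behind an array are unstated in the sources used here. Of 12488 probe sets, 66 controls were left out, 12422 remained as the members of the comparison, and 8695 passed a filter that removed the 30% with the lowest mean signal.

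CD11b, the alpha M chain of an integrin encoded by Itgam, marks neutrophils, monocytes, many macrophages and some other leukocytes. In mice with tumors such cells accumulate in the spleen, and many of them can suppress T cells, in part through arginase 1, which degrades the arginine that T cells need, and nitric oxide synthase 2, which turns arginine into nitric oxide. Myeloid cells placed in culture attach, lose short-lived granulocytes and can mature toward macrophages. A difference between fresh and cultured bulk RNA can come from fewer cells of a type or from less RNA per cell, and the arrays cannot tell these apart.

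The label could be checked against 10 genes that define it, and all 10 were measured. Itgam had a signal of 391.8, 413.5 and 584.8 on fresh 1, 2 and 3 and of 363.4, 332.6 and 954.1 on cultured 1, 2 and 3. The groups overlapped, and the log2 fold change of cultured over fresh was 0.09 ± 0.39 (SE). S100a8 and S100a9, the calprotectin genes of neutrophils and monocytes, had signals of at least 4167.3 on all 6 arrays, and Lyz2, the lysozyme gene of myeloid cells, of at least 3365.4. None of the 10 passed the test between the groups, and their median log2 fold change was -0.15 (0.11 without cultured 2).

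In both groups 1 array stood apart from a closer pair. Across probe sets fresh 1 and 2 correlated at r = 0.949, whereas fresh 3 correlated with them at 0.90 and 0.874. Cultured 1 and 2 correlated at 0.929 and cultured 3 with them at 0.85 and 0.869, about as high as cultured 3 with fresh 3 (0.861). Bacterial spike-in controls were also dimmer on the arrays that stood apart, with a mean log2 signal of 8.99 for fresh 3 and 9.25 for cultured 3. The other 2 fresh arrays were at 9.91 and 9.86 and the other 2 cultured arrays at 10.5 and 10.49. The beta-actin 3'/5' signal ratio, a measure of RNA integrity, lay between 1.35 and 1.59 on the fresh arrays, at 2.27 and 2.36 on cultured 1 and 2 and at 1.16 on cultured 3. Among the tumor-free arrays, 2 and 3 correlated at 0.957, and tumor-free 1 stood apart from them at 0.827 and 0.823. Its beta-actin ratio was 2.57, against 0.994 and 1.19 on tumor-free 2 and 3, and its spike-in signal, at 10.36, was not dimmer.

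Of the 8695 probe sets tested, 234 (2.69%) passed limma's moderated test at a Benjamini-Hochberg adjusted p below 0.05, and these are the called probe sets. After culture 132 of them (1.52%) were higher and 102 (1.17%) were lower, while the median log2 fold change over all probe sets tested was 0.02. Fold changes are on the scale log2(signal + 7.83), which understates changes of dim genes. With each gene represented by its brightest probe set, 90 of 6371 genes were called higher, with a median size of 1.87, and 70 lower, with a median size of 2.17. The 3 cultured and 3 fresh values did not overlap in any of the 234 called probe sets, nor in 22.2% of all probe sets tested (13.4% higher and 8.81% lower after culture). The smallest called difference was 1.04 on the log2 scale, and 1420 of the 8695 probe sets had an unadjusted p below 0.05. Counts of list members at an unadjusted p below 0.05 stand against that share. The number called depended on single arrays. It was 74 without fresh 1, 81 without fresh 2, 86 without cultured 2 and 142 without cultured 1, but 432 without cultured 3 and 489 without tumor-free 1, which enters only the estimate of the spread. The spread of the tumor-free arrays thus enters each SE and adjusted p, also of genes that missed the threshold. Ctsl, for example, was at 943.9, 92.2 and 74.3 on those arrays. When the most alike pair of each group was averaged into 1 array, an alternative added once the data had been seen, 21 were called, 4 higher and 17 lower. The count was 337 with the spike-in signal as a covariate, 441 with the beta-actin ratio as a covariate and 349 with fresh 3 and cultured 3 both left out. Each of the 234 had the same sign in all these fits. Genes were grouped into lists, and of 28 lists with no called gene 20 gained 1 or more in at least 1 fit without a single array.

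**Figure D1:**
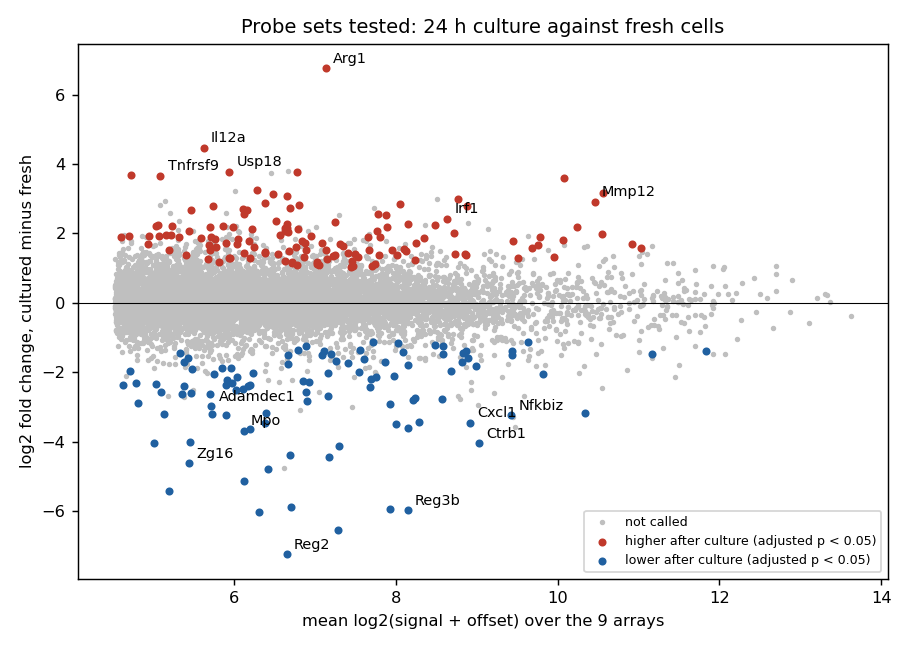
Log2 fold change of cultured over fresh cells (y axis) against the mean log2(signal + offset) over the 9 arrays (x axis) for the 8695 probe sets tested, with the 132 called higher in red, the 102 called lower in blue and the rest in grey. Arg1 lies highest at 6.76 and Reg2 lowest at -7.25.

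Arg1, which encodes arginase 1, had the largest rise. Its signal was 6.2, 33.5 and 11.8 on the fresh arrays and 2751.2, 2402.9 and 2159.7 on the cultured arrays. All 3 cultured arrays lay far above every fresh array, and also above the tumor-free arrays at 188.3, 16.4 and 18.6. The log2 fold change was 6.76 ± 0.70 (SE, limma adjusted p = 0.000857), and the call held with each single array left out (adjusted p up to 0.00757). On the fresh arrays the signal was near the offset, where the offset makes the fold change an understatement.

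Of 17 measured genes of arginine metabolism and the suppressor pathway only Arg1 was called, against 2.69% of all probe sets. The list median was 0.07 against 0.02 for all probe sets. Nos2, the inducible nitric oxide synthase gene, had signals of 14.1, 29.0 and 28.7 fresh and 115.4, 78.7 and 69.6 cultured. The groups did not overlap, but the difference of 1.60 ± 0.40 missed the threshold (limma adjusted p = 0.0608). Arg2, the mitochondrial arginase gene, was at 864.7, 802.7 and 1112.7 fresh and at 1157.7, 941.6 and 783.2 cultured, with a log2 fold change of 0.05 ± 0.45. Odc1, encoding the ornithine decarboxylase that opens polyamine synthesis from the product of arginase, was at -1.97 (adjusted p = 0.117). Ass1 and Asl, which rebuild arginine from citrulline, were at 0.74 and -0.97 (adjusted p = 0.193 and 0.0756). The receptor genes upstream of Arg1 and Nos2 showed no called difference. Il4ra, the shared receptor chain for interleukins 4 and 13, was at -1.14 ± 0.57 (adjusted p = 0.359), while a dimmer probe set of it went the other way, at 0.47, and was not called. Il13ra1 was at 0.15, and Ifngr1, a chain of the interferon gamma receptor, at -0.08. The transcription factor genes Stat6, Stat3 and Cebpb were at -0.02, -0.09 and -0.58, and Tgfb1, a suppressive cytokine gene, at -0.34. Cybb, the catalytic subunit of the phagocyte oxidase, was at 1.5 (adjusted p = 0.0949).

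Alternative activation genes, which macrophages express under interleukin 4, went different ways. Of 12 measured, Arg1 rose, Mrc1 fell and 10 were not called, against 1.52% of all probe sets higher and 1.17% lower. The median was -0.39 (-0.20 without cultured 1), and without cultured 3 or tumor-free 1 the list had 2 calls in each direction. Mrc1, the mannose receptor, was at 109.7, 98.3 and 195.3 on the fresh arrays and at 22.7, 16.8 and 21.1 on the cultured arrays. No cultured array reached a fresh one, and the log2 fold change was -2.29 ± 0.39 (limma adjusted p = 0.0121, 0.0602 without cultured 2). Chil3, a chitinase-like protein of alternatively activated macrophages and of immature granulocytes, was at -2.15 (adjusted p = 0.109).

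Il12a, encoding the p35 subunit of interleukin 12, a cytokine that drives type 1 T cell responses, had the second largest rise. It was at 5.3, 10.5 and 35.0 fresh, and at 747.7, 396.5 and 361.9 cultured. The lowest cultured array was well above the highest fresh one, and the tumor-free arrays were at 6.05, 2.17 and 2.6. The log2 fold change was 4.47 ± 0.45 (limma adjusted p = 0.000759), and it was called without any single array (adjusted p up to 0.0068) and with averaged pairs (adjusted p = 0.025), as was Arg1 (adjusted p = 0.0147). Il12a was near or below the offset on most fresh and tumor-free arrays. It passed the filter through the cultured arrays, so a rise was built into its passing and these p-values are no separate support. Il12b, which encodes the partner subunit p40, was at 8.58, 12.0 and 22.5 fresh and 44.8, 64.2 and 18.7 cultured. Those groups overlapped (1.12 ± 0.46, adjusted p = 0.25).

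**Figure D2:**
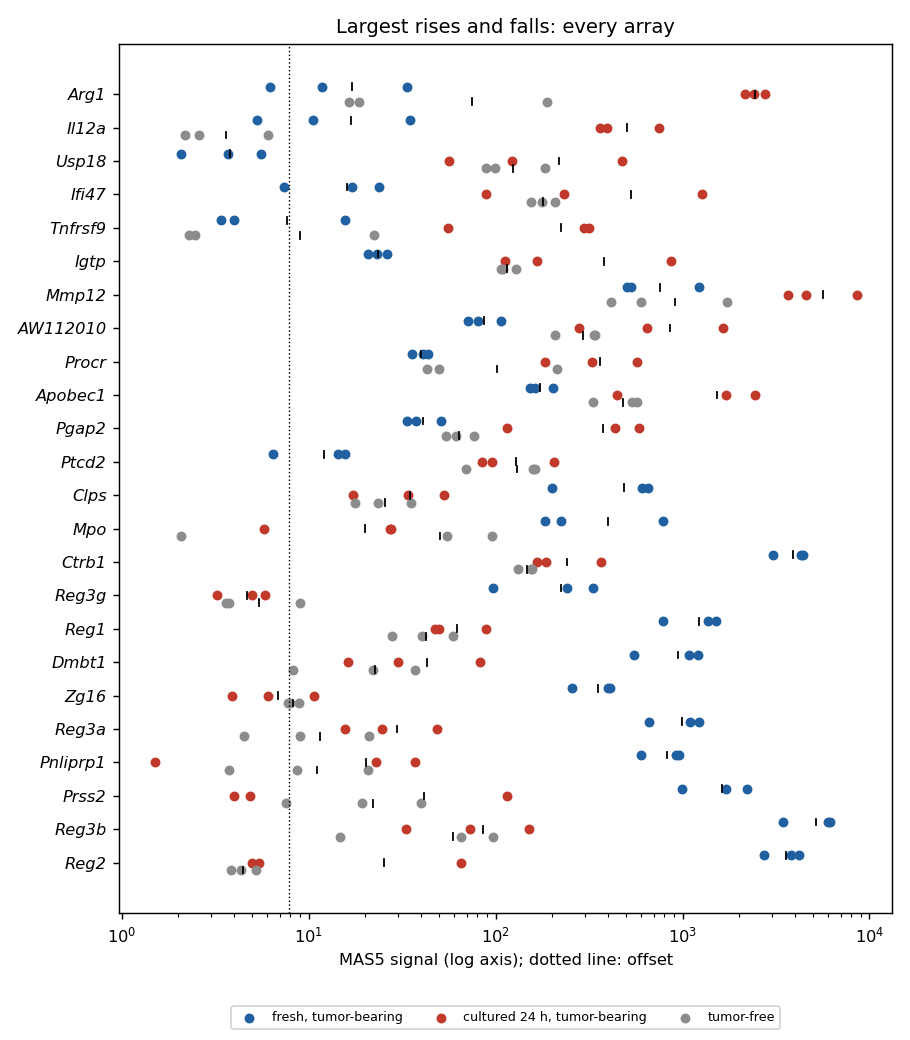
MAS5 signal (x axis, log scale) on every array for the 12 genes with the largest called rises, at the top, and the 12 with the largest called falls, at the bottom, with fresh arrays in blue, cultured arrays in red, tumor-free arrays in grey and the mean of each 3 as a black tick. Red and blue points do not overlap for any of the 24 genes, and for Arg1 the 3 cultured arrays sit between 2159.7 and 2751.2.

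Genes induced by interferons formed the group with the most rises. Type I interferons act through the factor complex ISGF3, which binds interferon-stimulated response elements, whereas interferon gamma acts mainly through gamma-activated sites and induces IRF1. Of 38 measured genes of the lists for both pathways 11 were called higher and 0 lower, against 1.52% and 1.17% of all probe sets. All 38 fold changes were above 0, 26 of them above 1, and the median was 1.44 against 0.02 for all probe sets. In the interferon gamma list 8 of 20 rose (median 1.53), and in the type I list 3 of 18 (median 1.43). The interferon gamma count was 3 without fresh 1, 4 without fresh 2 or fresh 3, and 5 without cultured 2, but 12 with the spike-in signal or the beta-actin ratio as a covariate. The type I count was 2 without fresh 1 or fresh 2, 5 without tumor-free 1, and 7 without cultured 1 or with the spike-in covariate. With averaged pairs both counts were 0, and no interferon gene of either list was called lower in any of these fits.

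Among the interferon gamma genes the GTPases that attack the vacuoles of intracellular microbes changed most. Ifi47 was at 23.8, 7.36 and 17.1 fresh and at 88.8, 231.8 and 1265.2 cultured, a log2 fold change of 3.76 ± 0.72 (limma adjusted p = 0.0206). Igtp was at 26.2, 23.1 and 20.8 fresh and at 112.0, 166.8 and 863.9 cultured (3.08 ± 0.58, adjusted p = 0.0181). For both GTPase genes the cultured arrays were spread widely, with cultured 3 highest, yet all lay above the fresh arrays. Irgm1 rose by 2.68 (adjusted p = 0.047). Irf1, the transcription factor at the head of the secondary response, was at 157.8, 151.7 and 196.7 fresh and at 748.2, 843.7 and 1314.8 cultured, with a log2 fold change of 2.43 ± 0.26 (adjusted p = 0.000857). Its cultured arrays lay closer together than those of the GTPases. The antigen-processing genes Tap1, a peptide transporter subunit, Psme1, an activator of the proteasome, and Tapbp, the tapasin that loads peptide on MHC class I, rose by 2.23, 2.02 and 1.67 (adjusted p = 0.00452, 0.0058 and 0.00791). Irf8, a factor of monocyte and dendritic cell development, rose by 1.87 (adjusted p = 0.0253). The guanylate-binding protein gene Gbp2 had the list's largest difference, 3.79 ± 0.90, but missed the threshold (adjusted p = 0.0513), with 104.0, 254.0 and 1934.4 on the cultured arrays. The immunoproteasome genes Psmb9 and Psmb8 and the MHC class I light chain B2m were at 1.78, 1.40 and 0.95 and were not called (adjusted p = 0.11, 0.148 and 0.0865). Without single arrays Ifi47 lost its call (fresh 1, 2 or 3 or cultured 2, adjusted p up to 0.0974), as did Igtp (fresh 1, 2 or 3, up to 0.0781), Irgm1 (tumor-free 2 or 3, fresh 1, 2 or 3, or cultured 2 or 3, up to 0.159), Irf8 (fresh 1, 2 or 3 or cultured 1 or 2, up to 0.0849) and Tapbp (fresh 1, 0.052). Irf1, Tap1 and Psme1 kept it in each such fit. A dimmer Tap1 probe set gave -0.39, and a further Tapbp probe set 0.24 with overlapping groups.

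The 3 type I genes called were Usp18, Irf7 and Ifi202b. Usp18, the protease that removes ISG15 from proteins and damps interferon signaling, was at 2.09, 3.7 and 5.59 fresh and at 56.4, 121.9 and 473.4 cultured. All fresh values lay below the offset and all cultured values above it, and the log2 fold change was 3.78 ± 0.60 (limma adjusted p = 0.00866). Irf7, the factor that amplifies interferon alpha production, was at 63.8, 62.6 and 84.7 fresh and at 285.8, 344.7 and 932.5 cultured (2.57 ± 0.39, adjusted p = 0.00706). Another Irf7 probe set gave 0.92 and was not called. Ifi202b, a DNA-binding protein of the interferon-induced p200 family, rose by 2.32 ± 0.39 (adjusted p = 0.0115), and its call was lost without fresh 1 or fresh 2 (adjusted p up to 0.0605). The antiviral genes Ifit2, Ifit3, Ifit1 and Isg15 were at 2.82, 2.59, 2.22 and 0.93 and were far from the threshold (adjusted p = 0.207 to 0.515), with cultured 3 far above cultured 1. Ifit3, for example, was at 13.2, 40.6 and 886.0 on the cultured arrays against 5.25, 6.76 and 13.9 on the fresh arrays.

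The size of the interferon shift differed between the cultured arrays. Cultured 3 was the highest of the 3 cultured arrays for 35 of the 38 interferon genes, and for 10 of the 11 called ones, Irf8 being the exception. Of the 79 other genes called higher, cultured 3 was the highest array for 14 and the lowest for 50, and over all 6371 genes it was the highest for 2099. Cultured 1 was the lowest for 33 of the 38 interferon genes. Without cultured 3 the medians were 1.10 for the interferon gamma list and 0.88 for the type I list. Without cultured 1 they were 1.92 and 2.08. With fresh 3 and cultured 3 both left out they were 1.27 and 0.86. The summed signal of the measured type I genes was 1339, 1237 and 1975 on the fresh arrays, 1926, 3170 and 10719 on the cultured arrays and 4496, 3371 and 3093 on the tumor-free arrays, so that fresh 3 was slightly above cultured 1. For interferon gamma genes the sums were 5316, 4953 and 4804 fresh, 9367, 13949 and 21482 cultured, and 7401, 9826 and 8459 tumor-free. The NK and cytotoxic marker list, whose cells are a source of interferon gamma, had 7 of 17 members measured, none called, and summed signals of 286, 306 and 169 fresh and 291, 241 and 623 cultured. Its summed level was thus also highest on cultured 3, and its part in the interferon result was not tested. Ifng itself did not pass the filter on dim probe sets.

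**Figure D3:**
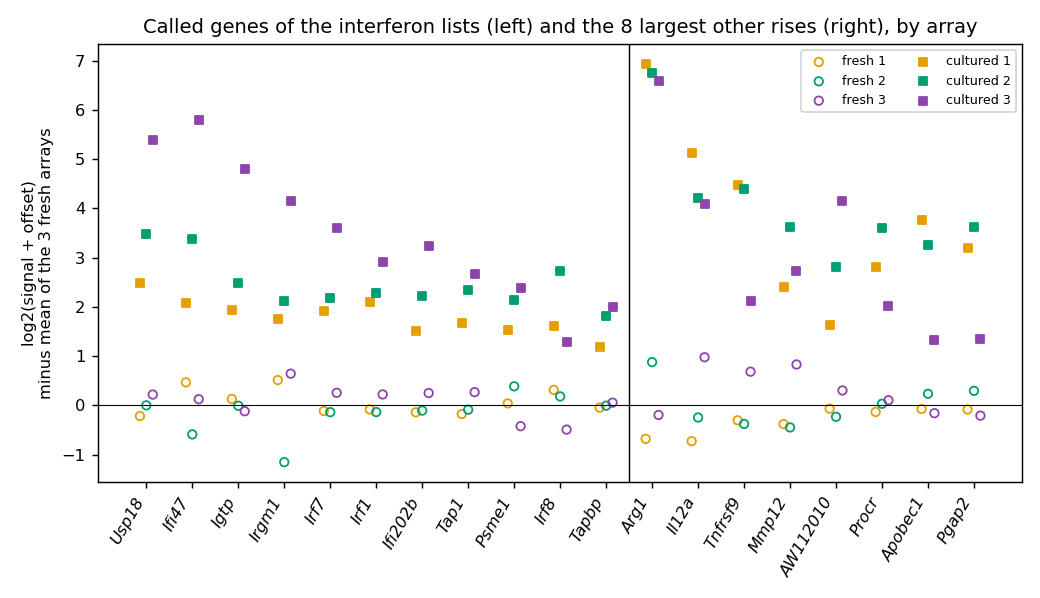
Log2(signal + offset) of each array minus the mean of the 3 fresh arrays (y axis) for the 11 called interferon genes, left of the line, and the 8 largest called rises outside those lists, right of it, with open circles for fresh and filled squares for cultured arrays. For 10 of the 11 interferon genes cultured 3, in purple, is the highest array. For 6 of the 8 other genes it is the lowest cultured array, for Mmp12 it lies between the other two, and for AW112010 it is the highest.

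Promoter sequence was read from RefSeq windows of GRCm38.p6, each from 250 bases before a gene's start to 50 after it, and 10 of the 11 called interferon genes had a window. A core of the interferon-stimulated response element, GAAANNGAA on either strand, was found in the windows of Igtp, Irgm1 and Psme1, and in 8.56% of all windows of the table. A gamma-activated site, TTCNNNGAA, which reads the same on both strands, was found in those of Igtp, Irf1, Irf8 and Ifi202b, and in 8.3% of all windows. The 120 bases before the start of 3 of these genes are shown because their matches, in capitals, lie within that stretch, and a match is a description and not a measured site. They are, on the gene's strand, Irf1 at chr11:53769894-53770013 (plus strand), Igtp at chr11:58199436-58199555 (plus) and Irgm1 at chr11:48871421-48871540 (minus), where 2 response element cores overlap.
Irf1: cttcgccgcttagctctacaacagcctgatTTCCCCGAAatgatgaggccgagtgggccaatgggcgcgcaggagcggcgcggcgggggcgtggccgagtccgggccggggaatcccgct
Igtp: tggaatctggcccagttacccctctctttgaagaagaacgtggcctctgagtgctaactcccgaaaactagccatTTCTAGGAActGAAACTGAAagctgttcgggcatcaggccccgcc
Irgm1: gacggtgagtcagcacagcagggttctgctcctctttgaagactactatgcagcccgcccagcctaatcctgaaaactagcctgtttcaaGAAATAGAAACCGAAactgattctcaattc
The Irf1 stretch holds 1 gamma-activated site, the Igtp stretch both kinds of element side by side, and the Irgm1 stretch only response element cores. None of these letters occurred in the windows of Tap1, Tapbp, Ifi47 and Irf7.

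Among inflammatory mediators there were few calls, most of them falls. Of all probe sets 1.17% were called lower and 1.52% higher. Of 17 measured cytokine genes Il10 and Csf3 fell and Il12a rose, with a list median of -0.73. Of 23 genes of the NF-kB pathway and its targets 1 fell, Nfkbiz, 0 rose and 18 were below 0 (median -0.84). Of 6 measured CXC chemokine genes 1 fell, Cxcl1, and 3 were above 0. The list median was 0.11 (-0.40 without cultured 3 and -0.10 without fresh 3). With a filter of 50%, which leaves out more dim probe sets, this CXC median was -2.68. Of 11 CC chemokine genes none was called (5 at an unadjusted p below 0.05, median -0.63, -0.91 without fresh 3). Without tumor-free 1 the counts called lower were 5 for cytokines, 3 for the NF-kB list, 2 for CXC and 3 for CC chemokines, and 1 CC chemokine gene was called higher. The count of cytokine genes called lower was 0 without any 1 fresh array, cultured 1 or cultured 2. With averaged pairs no gene of these lists was called lower.

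Cxcl1, a chemokine that draws neutrophils, was at 2477.7, 2327.2 and 2016.2 fresh and at 188.3, 180.1 and 235.8 cultured. Each group was tight and the gap between them wide, with a log2 fold change of -3.45 ± 0.58 (limma adjusted p = 0.0115) and -3.43 at a second probe set. The tumor-free arrays were at 773.9, 167.2 and 93.6. Nfkbiz, an atypical inhibitor-like cofactor of NF-kB in secondary response genes, was at 1692.6, 1622.2 and 2497.6 fresh and at 229.6, 136.8 and 235.9 cultured (-3.23 ± 0.48, adjusted p = 0.00606), although a dimmer probe set gave -0.67 and was not called. Without fresh 1, fresh 2 or cultured 2 the call of Cxcl1 was lost (adjusted p up to 0.0582), while Nfkbiz kept its call in each of these fits (up to 0.0352). Of the 4 genes called lower in the NF-kB, cytokine and chemokine lists, only Cxcl1 had a promoter window in the sequences used here. That window held matches to the NF-kB motif GGGNNTTTC, searched on both strands, as did 4.36% of all windows. The 120 bases before the start of Cxcl1 are at chr5:90891125-90891244 on the plus strand. They are shown with both matches in capitals, the first of them read on the opposite strand.
Cxcl1: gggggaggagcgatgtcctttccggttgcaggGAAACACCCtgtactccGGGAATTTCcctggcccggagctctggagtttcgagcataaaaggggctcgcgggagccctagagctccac

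Il10, the anti-inflammatory cytokine gene, was at 111.4, 107.2 and 137.1 fresh and at 5.44, 6.98 and 41.0 cultured. The log2 fold change was -2.56 ± 0.53 (limma adjusted p = 0.0272), but a control probe set for the same gene on the array overlapped between the groups, at 131.2, 156.2 and 346.7 fresh against 201.1, 193.6 and 178.2 cultured. The direction for Il10 therefore rests on 1 of 2 probe sets. Most cultured and tumor-free values of the called probe set lay below the offset. It passed the filter through the fresh arrays, so a fall was built into its passing. Csf3, encoding the granulocyte colony-stimulating factor, fell by 1.72 (adjusted p = 0.0356) from 334.1, 291.1 and 529.3 to 146.7, 95.1 and 88.0. Other cytokine genes had large differences that missed the threshold. Tnf was at 427.3, 398.4 and 1161.5 fresh and 24.2, 42.2 and 250.2 cultured (-2.99, adjusted p = 0.0785). Il1a was at -2.60 (adjusted p = 0.0552), Il6 at -1.86 (adjusted p = 0.303) and Il1b at -0.71 (adjusted p = 0.474). Of the chemokines without a call, Ccl4 was at -2.23, Cxcl2 at -1.92, Ccl6 at -1.87 and Ccl3 at -1.83, while Ccl5 was at 2.99 (adjusted p = 0.148). Ptgs2, the inducible cyclooxygenase gene, was at -2.78 (adjusted p = 0.113), and the feedback inhibitor genes of NF-kB Nfkbia and Tnfaip3 at -1.30 and -1.57 (adjusted p = 0.31 and 0.34). The calls of Il10 and Csf3 were lost without fresh 1, 2 or 3 or cultured 1 or 2, that of Csf3 also without cultured 3, and the adjusted p reached 0.126 and 0.144.

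Immediate early genes, induced within minutes of a stimulus, gave 2 calls, both lower. Of 26 measured, Dusp1 and Fosb fell, 0 rose and 21 were below 0 (median -0.55), against 1.17% of all probe sets called lower. The count called lower was 5 without tumor-free 1 and 0 without any 1 fresh array or cultured 2, and with array weights it was 7, with 2 higher. Dusp1, a phosphatase that switches off MAP kinases, was at 2557.6, 2663.7 and 2695.7 fresh and at 1342.4, 1049.4 and 612.0 cultured (-1.46 ± 0.31, limma adjusted p = 0.0293). Fosb, a subunit of the AP-1 transcription factor, was at 445.7, 456.2 and 409.6 fresh and at 201.0, 103.6 and 132.1 cultured (-1.58 ± 0.32, adjusted p = 0.0237). The fresh arrays were tight for both genes. The tumor-free arrays lay above them, at 4270.9 or more for Dusp1 and at 1123.1 or more for Fosb. Nr4a1, an orphan nuclear receptor, was at -2.28 and Myc at -1.59 (adjusted p = 0.0847 and 0.0634). Socs3, a brake on STAT3 signaling, was at -1.17 at its brightest probe set (adjusted p = 0.205) and was called lower at another (-1.97, adjusted p = 0.0222). Without fresh 1, 2 or 3 or cultured 2 both Dusp1 and Fosb lost their calls, Dusp1 also without tumor-free 2 or 3 (adjusted p up to 0.117 and 0.119).

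Genes of the exocrine pancreas had the largest falls. The pancreas lies against the spleen, and its acinar cells, which do not carry CD11b, make digestive enzymes and Reg lectins in large amounts. Of 33 listed genes 22 were on the array and 19 passed the filter. Some of them, such as Reg2, Zg16 and Reg3g, were near or below the offset on most arrays outside the fresh ones. Pnliprp1 was at 36.9 or less outside the fresh arrays. These genes passed the filter through the fresh arrays. For such genes a fall was built into their passing, so the count is a description and supports nothing. Others, such as Ctrb1 and Cel, were at 91.3 or more on every array. Of those 19, 15 were called lower and 0 higher, against 1.17% and 1.52% of all probe sets, and the median was -4.05. Their summed signal was 26314, 24887 and 15021 on the fresh arrays, 2101, 1323 and 1051 on the cultured arrays and 1139, 1184 and 1493 on the tumor-free arrays. The fresh arrays thus lay above all others, fresh 3 being the lowest of them, and the cultured arrays lay near the tumor-free ones.

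Reg2, a secreted lectin-like protein, was at 4186.7, 3810.8 and 2734.6 fresh and at 65.6, 5.4 and 4.99 cultured. Cultured 2 and 3 lay below the offset, cultured 1 kept a low signal, and the log2 fold change was -7.25 ± 0.56 (limma adjusted p = 0.000141). Reg2 passed the filter through the fresh arrays, so a fall was built into its passing and this p-value is no separate support. Another, dim Reg2 probe set gave 0.14 and was not called. Reg3b changed by -5.97, Reg3a by -4.79, Reg1 by -4.13 and Reg3g by -4.05. Second probe sets of Reg3b and Reg3a gave -6.04 and -5.43. Among the enzyme genes, Prss2, a trypsinogen, was at 2207.4, 1705.0 and 993.6 fresh and at 115.0, 4.85 and 3.97 cultured (-5.89 ± 0.79, adjusted p = 0.00359). Ctrb1, a chymotrypsinogen, was at 4390.1, 4326.8 and 3041.8 fresh and at 368.5, 166.9 and 187.0 cultured (-4.05 ± 0.31, adjusted p = 0.000141). On cultured 1 both genes kept more signal than on the other cultured arrays. The lipase-related Pnliprp1 changed by -5.13, the zymogen granule protein Zg16 by -4.62, the epithelial scavenger protein Dmbt1 by -4.37, the cofactor colipase Clps by -3.46, the carboxyl ester lipase Cel by -2.42, the zymogen granule protein Sycn by -2.31 and the elastase Cela2a by -1.37. Klk1, the tissue kallikrein, changed by -3.23, and its close paralogs Klk1b5, Klk1b1, Klk1b22 and Klk1b16, whose probes may bind each other's RNA, by -3.21, -2.40, -2.31 and -1.97. Cela1 and Ctrl, at -1.99 and -1.62, were not called (adjusted p = 0.0609 and 0.192). Sycn lost its call without tumor-free 2 or 3, fresh 1 or 2, or cultured 2 or 3 (adjusted p up to 0.151), Cela2a without fresh 1 or 2 or cultured 2 (up to 0.0768) and Klk1b16 without any 1 fresh array or cultured 1 or 2 (up to 0.119). Without the probe sets of the list 206 of 8673 were called, 122 higher and 84 lower. The Klk1b paralogs were not in the list and stayed in this fit. So did 2210010C04Rik, which fell by 2.77 (limma adjusted p = 0.00901) in the fit reported. The 84 are thus not free of genes with the pattern described here.

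Neutrophil granule genes gave 2 calls, both lower. Primary granules form first in promyelocytes and hold myeloperoxidase and serine proteases. Of 9 measured primary granule genes Mpo and Prtn3 fell and 0 rose (median -1.66), against 1.17% of all probe sets called lower. Mpo, myeloperoxidase, was at 223.3, 182.9 and 789.8 fresh and at 27.1, 5.76 and 27.5 cultured (-3.68 ± 0.82, limma adjusted p = 0.0409). Fresh 3 was far above the other fresh arrays, and a second, dimmer Mpo probe set gave -0.27 with overlapping groups. Prtn3, proteinase 3, was at 211.3, 225.8 and 640.8 fresh and at 76.4, 18.0 and 66.3 cultured (-2.56 ± 0.55, adjusted p = 0.0355). Elane, neutrophil elastase, was at -2.13 and Ctsg, cathepsin G, at -2.11, neither of them called (adjusted p = 0.0572 and 0.0832). Mpo and Prtn3 lost their calls without any 1 fresh array, cultured 1 or cultured 2, and Mpo also without tumor-free 2 (adjusted p up to 0.165 and 0.134).

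None of 15 measured secondary and tertiary granule genes was called (3 at an unadjusted p below 0.05), with a median of -1.06. Ltf, lactoferrin, was at 4394.5, 4223.2 and 4216.2 fresh and at 577.4, 221.1 and 3698.6 cultured (-2.44 ± 1.22, limma adjusted p = 0.362). Lcn2, the siderophore-binding lipocalin, was at 6273.4, 5780.2 and 4678.6 fresh and at 1744.6, 413.4 and 5666.9 cultured (-1.78, adjusted p = 0.225). Camp, the cathelicidin gene, and Ngp were at -1.46 and -1.47 with the same order of arrays. In these genes cultured 1 and 2 were low and cultured 3 was near the fresh arrays, and the list median was -1.5 without cultured 3 and -0.53 without cultured 2. A dimmer Lcn2 probe set had cultured 3 lowest, at 138.9, 142.0 and 96.6 on the cultured arrays. None of the 13 mature neutrophil genes was called either (median -0.31, -0.69 without cultured 3). The interleukin 1 decoy receptor gene Il1r2 was at 2901.9, 2442.4 and 3358.3 fresh and at 211.1, 179.5 and 324.5 cultured, a log2 fold change of -3.59 that missed the threshold (adjusted p = 0.119). Its fresh and cultured groups were tight, and its tumor-free arrays, at 5865.7, 147.8 and 142.2, were not.

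Few monocyte and macrophage genes were called. None of 15 monocyte genes was (3 at an unadjusted p below 0.05, median -0.04, 2 called lower without tumor-free 1), with the receptor genes Cd14 and Csf1r at -0.50 and 0.88. Of 16 measured macrophage genes Hmox1 rose and Mrc1 fell (median 0.16, -0.23 without cultured 3), against 1.52% of all probe sets higher and 1.17% lower. Hmox1, the heme oxygenase of red pulp macrophages and of oxidative stress, was at 864.4, 939.1 and 783.6 fresh and at 2605.6, 3273.4 and 2661.8 cultured (1.71 ± 0.34, limma adjusted p = 0.0232). Adgre1, which encodes F4/80, and Cd68 were each at 0.67, and Apoe, an apolipoprotein of macrophages, at -2.94 (adjusted p = 0.0847). Hmox1 lost its call without any 1 fresh array and without either of cultured 1 and 2, where the adjusted p reached 0.115. Mrc1 lost it without cultured 2 (0.0602).

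Of 17 measured genes that macrophages gain as they differentiate in culture, Mmp12 and Acp5 rose and Adamdec1 and Mt1 fell, with a median of 0.66 (0.32 without cultured 3). Of all probe sets 1.52% were called higher and 1.17% lower. Without tumor-free 1 the list had 6 calls higher and 4 lower. Mmp12, the macrophage elastase, was at 527.1, 502.3 and 1230.1 fresh and at 3661.2, 8606.9 and 4588.7 cultured (2.92 ± 0.54, limma adjusted p = 0.0176), and a second probe set gave 2.99. Acp5, the tartrate-resistant acid phosphatase of macrophages and osteoclasts, rose by 1.49 (adjusted p = 0.0206). Adamdec1, a metalloprotease of macrophages and dendritic cells, was at 75.5, 70.0 and 144.1 fresh and at 6.62, 3.97 and 4.09 cultured. All cultured values lay below the offset, and the log2 fold change of -2.97 ± 0.32 (adjusted p = 0.000857) was called without any single array and with averaged pairs (adjusted p = 0.0331). Lpl, lipoprotein lipase, at 2.53 and Ctsl, the lysosomal protease cathepsin L, at 2.13 missed the threshold (adjusted p = 0.0521 and 0.164). Mmp12 lost its call without fresh 1, fresh 2 or cultured 2, Acp5 without those or cultured 1, and Mt1 without any 1 fresh array and without either of cultured 1 and 2. The highest adjusted p in these fits was 0.0909 for Mmp12, 0.107 for Acp5 and 0.15 for Mt1.

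Some surface receptor genes were also called higher. Tnfrsf9, which encodes the costimulatory receptor 4-1BB, was at 3.98, 3.39 and 15.6 fresh and at 315.8, 297.2 and 55.5 cultured (3.66 ± 0.66, limma adjusted p = 0.0158). Cultured 3 was the lowest cultured array, still above the fresh ones, and a second, dimmer probe set gave 0.16. Tnfrsf9 was near or below the offset on most fresh and tumor-free arrays. It passed the filter through the cultured arrays, so a rise was built into its passing. Procr, the endothelial protein C receptor, was at 35.6, 40.9 and 43.4 fresh and at 328.3, 572.8 and 184.9 cultured (2.81 ± 0.54, adjusted p = 0.0206). Sirpa, the receptor for CD47 on phagocytes, rose by 1.28 (adjusted p = 0.0219) and by 1.33 at another probe set. Of 12 measured costimulatory and inhibitory ligand genes these receptor genes, Tnfrsf9 and Sirpa, were the 2 called, against 2.69% of all probe sets. Cd80 and Cd40 were at -1.23 and 1.04 (adjusted p = 0.155 and 0.18). Of 12 chemokine receptor genes only Ccrl2, an atypical receptor that binds chemerin, fell (-1.16, adjusted p = 0.0354), against 1.17% of all probe sets called lower. Ccr7, which guides dendritic cells to lymph nodes, was at 1.48 (adjusted p = 0.0572). None of 25 cytokine receptor genes (2 at an unadjusted p below 0.05) and none of 21 integrin and adhesion genes (3 unadjusted) was called. Lifr, a cytokine receptor gene that was not among these 25, was called lower at -2.03 and is described at the end. Tnfrsf9, Procr, Sirpa and Ccrl2 lost their calls without fresh 1, fresh 2, cultured 1 or cultured 2, Procr, Sirpa and Ccrl2 also without fresh 3, and Ccrl2 also without tumor-free 2 or cultured 3 (adjusted p up to 0.0815, 0.103, 0.114 and 0.141).

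Genes of the glutathione and antioxidant defence split. Of 24 measured, Gclm, Hmox1 and Gclc rose and Gpx3 and Mt1 fell, with a median of 0.46, against 1.52% of all probe sets higher and 1.17% lower. Gclm and Gclc encode the 2 subunits of glutamate-cysteine ligase, the enzyme that limits glutathione synthesis. Gclm was at 58.8, 32.6 and 63.2 fresh and at 151.0, 538.0 and 243.0 cultured (2.28 ± 0.41, limma adjusted p = 0.0158), and Gclc rose by 1.61 (adjusted p = 0.0434). Txn1 and Nqo1, targets of the same stress factor NRF2, were at 1.12 and 1.05 and not called (adjusted p = 0.119 and 0.102). Gpx3, the secreted glutathione peroxidase, fell by 2.24 (adjusted p = 0.0219). Mt1, a metallothionein that binds zinc and other metals, was at 599.5, 577.7 and 1538.4 fresh and at 114.8, 50.4 and 170.4 cultured (-2.92 ± 0.63, adjusted p = 0.0356), and Mt2 was at -2.68 (adjusted p = 0.0925). Gclm, Gpx3 and Mt1 lost their calls without fresh 1, fresh 2 or cultured 2, Gpx3 and Mt1 also without fresh 3, and Mt1 also without cultured 1 (adjusted p up to 0.0781, 0.102 and 0.15). Gclc lost it without any 1 array other than tumor-free 1 and cultured 3 (up to 0.183).

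Glycolysis genes were mostly above 0 without a call at the brightest probe set. Of 15 measured, none was called, 12 were above 0 and the median was 0.74. An unadjusted p below 0.05 was found for 7, against 1420 of the 8695 probe sets. The count called higher was 5 without tumor-free 1, 2 without cultured 3, 1 without fresh 3, 2 with a filter of 50%, 3 with the beta-actin ratio as a covariate and 8 with array weights, and 0 were lower in each of these fits. Pgk1, phosphoglycerate kinase, was at 803.4, 750.0 and 841.9 fresh and at 4013.9, 3399.2 and 1257.7 cultured (1.68 ± 0.54, limma adjusted p = 0.14). Cultured 3 was again the lowest cultured array. Aldoa, an aldolase, was at 1.60 (adjusted p = 0.0502), and a second probe set of it was called higher (1.31, adjusted p = 0.047). Of 14 hypoxia-induced genes Egln1, an oxygen-sensing prolyl hydroxylase, rose by 1.49 (adjusted p = 0.0356), against 1.52% of all probe sets called higher. Vegfa was at 1.61 with overlapping groups (list median 0.62). None of 37 mitochondrial respiration genes was called (3 unadjusted, median 0.17). Egln1 lost its call without tumor-free 2 or 3, fresh 1 or 2, or cultured 1 or 2 (adjusted p up to 0.127).

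Lysosomal and lipid genes gave few calls. Of 18 measured genes of cholesterol and fatty acid synthesis none was called (4 at an unadjusted p below 0.05), and of 19 genes of lipid uptake and efflux 1 rose, Npc2, against 1.52% of all probe sets. Of 40 measured lysosomal hydrolase and membrane protein genes Npc2 and Acp5 rose, and none of 14 lysosomal protease genes was called (4 at an unadjusted p below 0.05, median 0.59). Npc2, which carries cholesterol out of the lysosome, was at 962.6, 940.7 and 653.3 fresh and at 4328.4, 4148.0 and 2069.1 cultured (1.98 ± 0.32, limma adjusted p = 0.00954, 0.0544 without cultured 2). The lysosomal acid lipase gene Lipa was at 1.73 (adjusted p = 0.0699). Of 14 genes of prostaglandin and leukotriene synthesis Ptges, the inducible prostaglandin E synthase, rose by 2.16 (adjusted p = 0.0293). Ptgr1, which inactivates leukotriene B4 and some prostaglandins and was in no list, rose by 2.53 (adjusted p = 0.0134). The next 5 genes, Pon3 to Elovl5, were in none of these lists. Pon3, a lactonase that protects lipids from oxidation, was at 41.9, 34.3 and 24.8 fresh and at 309.3, 300.7 and 134.3 cultured (2.56 ± 0.37, adjusted p = 0.00493), a call that held without any single array. Apobec1, a cytidine deaminase that edits messenger RNA in macrophages, was at 162.1, 202.7 and 152.3 fresh and at 2442.3, 1704.6 and 444.3 cultured (2.79 ± 0.52, adjusted p = 0.0173). The mitochondrial enoyl-CoA hydratase gene Echs1 rose by 2.69 and Acaa2, the thiolase of the same pathway of fatty acid oxidation, fell by 1.70 (adjusted p = 0.0127 and 0.0107). Elovl5, which elongates polyunsaturated fatty acids, fell by 1.81 (adjusted p = 0.00452). Acp5 lost its call without fresh 1 or 2 or cultured 1 or 2 (adjusted p up to 0.107), Ptges and Apobec1 without any 1 fresh array, cultured 1 or cultured 2 (up to 0.126 and 0.0866), Ptgr1 without any 1 fresh array or cultured 2 (up to 0.0675), Echs1 without fresh 2 or cultured 2 (up to 0.0698) and Acaa2 without fresh 1 (0.0616).

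Proliferation genes gave 2 calls, both lower. Of 50 measured cell cycle and DNA replication genes Stmn1 and Mcm4 fell, 0 rose and 44 were below 0, against 1.17% of all probe sets called lower. The median was -0.55 (-0.80 without cultured 3 and -0.26 without cultured 2). The count called lower was 10 without cultured 3, 7 with fresh 3 and cultured 3 both left out and 18 with array weights, but 0 without any 1 fresh array or cultured 2. Stmn1, which destabilizes microtubules in dividing cells, was at 177.1, 174.0 and 417.5 fresh and at 11.2, 9.81 and 110.4 cultured (-2.83 ± 0.64, limma adjusted p = 0.0434). Mcm4, a subunit of the replicative helicase, was at 145.5, 181.2 and 179.5 fresh and at 73.1, 35.5 and 61.7 cultured (-1.49 ± 0.30, adjusted p = 0.0261). Mcm5 missed the threshold at -1.64 (adjusted p = 0.0513), and a dimmer probe set of it gave -0.06 with overlapping groups. Top2a, a topoisomerase of dividing cells, was at 68.5, 84.4 and 80.5 fresh and at 6.53, 5.13 and 86.1 cultured, so that cultured 3 lay with the fresh arrays. Mki67 showed the same order, with 266.2 on cultured 3 against 82.9 and 81.5, which were nearly equal. A dimmer Mki67 probe set had cultured 3 lowest, at 66.5, 40.3 and 36.4 on the cultured arrays. Stmn1 lost its call without tumor-free 2 or 3, any 1 fresh array, or cultured 1 or 2 (adjusted p up to 0.17), and Mcm4 without any 1 fresh array or cultured 2 (up to 0.115).

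Other called falls were in transcription, signaling and structural genes. Id3, an inhibitor of helix-loop-helix factors, fell by 1.88 (limma adjusted p = 0.017) and with Irf8 was the only one of 22 myeloid transcription factor genes called. Of all probe sets 2.69% were called. Batf, an AP-1 partner of activated leukocytes that was in no list, was at 190.9, 147.1 and 229.9 fresh and at 23.0, 23.4 and 46.7 cultured (-2.37 ± 0.32, adjusted p = 0.00408), with 16.5 to 29.0 on the tumor-free arrays. Ptpn22, a phosphatase that restrains lymphocyte and myeloid receptor signals, was at 589.6, 457.7 and 323.0 fresh and at 96.3, 107.9 and 85.0 cultured (-2.12 ± 0.26, adjusted p = 0.00197). G0s2, an inhibitor of triglyceride lipase, fell by 2.79 (adjusted p = 0.00213), Lmnb1, lamin B1 of the nuclear envelope, by 2.20 (adjusted p = 0.000857), and Cdc42ep4, an effector of the GTPase Cdc42, by 3.16 (adjusted p = 0.0043). Ezr, ezrin, which links membrane to actin, was the only one of 36 actin cytoskeleton genes called (-1.38, adjusted p = 0.0167). Batf, Ptpn22, G0s2, Lmnb1 and Cdc42ep4 kept their calls whichever array was left out. Id3 lost it without fresh 1, fresh 2 or cultured 2 (adjusted p up to 0.0868), Irf8 without any 1 fresh array, cultured 1 or cultured 2 (up to 0.0849) and Ezr without any 1 fresh array or cultured 2 (up to 0.0815).

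**Figure D4:**
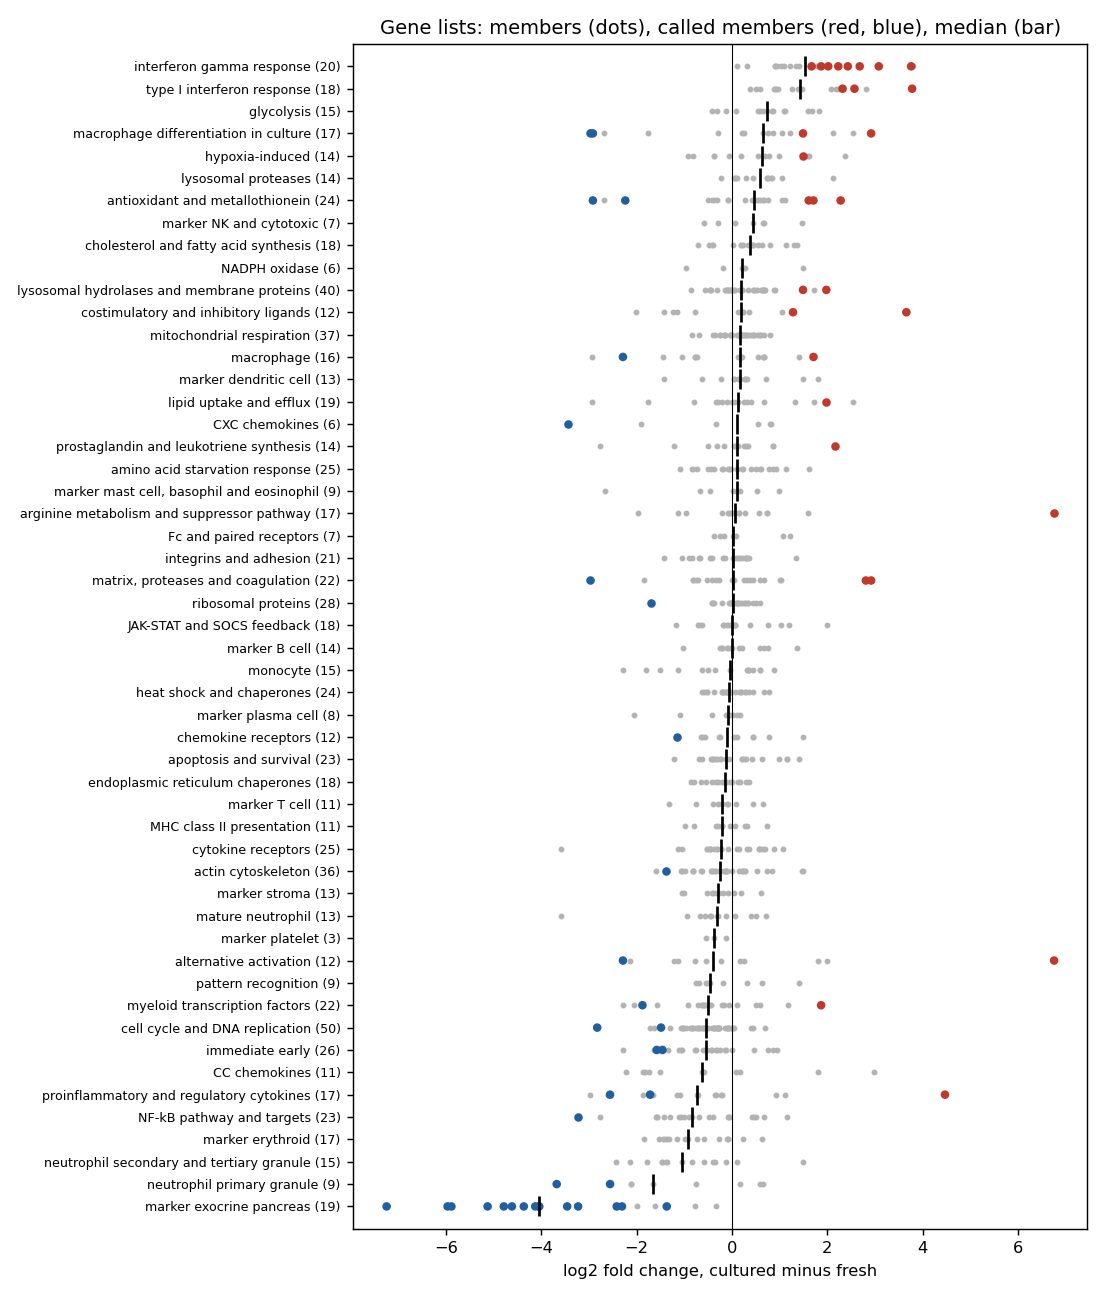
Log2 fold change of cultured over fresh cells (x axis) for the measured members of 52 gene lists (y axis, number measured in parentheses), with members as grey dots, called ones in red (higher) or blue (lower) and the list median as a black bar. The interferon lists have the highest medians, 1.53 and 1.43, and the exocrine pancreas list the lowest at -4.05.

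Markers of other cells that a spleen sort can hold gave no calls besides those of the pancreas. Of 14 B cell, 8 plasma cell, 11 T cell, 7 NK and cytotoxic, 17 erythroid, 3 platelet, 13 dendritic cell, 9 mast cell, basophil and eosinophil and 13 stromal genes measured, none was called by limma, against 2.69% of all probe sets. Without tumor-free 1, 2 erythroid genes, 1 plasma cell gene and 1 gene of the mast cell, basophil and eosinophil list were called lower, and 1 NK and cytotoxic gene and 1 dendritic cell gene were called higher. The erythroid list had 6 genes at an unadjusted p below 0.05 and a median of -0.92 (-0.50 without cultured 2). Its summed signal was 8714, 8598 and 10268 on the fresh arrays and 4046, 1840 and 11683 on the cultured arrays, so that cultured 3 lay above the fresh arrays. Hba-a1, an alpha globin, followed this order, with 1522.2, 548.8 and 6541.1 on the cultured arrays. B cell markers summed to between 1583 and 1789 on the fresh arrays and to 1105, 790 and 2594 on the cultured arrays. Ighm, the immunoglobulin mu chain, was at 396.6, 174.1 and 1357.0 on the cultured arrays. At their brightest probe sets Hba-a1, Ighm, the granule genes Ltf, Lcn2, Camp and Ngp and the proliferation genes Top2a and Mki67 thus all had cultured 3 as the highest and cultured 2 as the lowest cultured array. Dimmer probe sets of Lcn2 and Mki67 did not, and the part of such cells in the results above was not tested.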

How the data were processed

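RNA of CD11b+ spleen cells was measured on 9 arrays, 3 per group, from 5 ug of RNA each, per the labels' protocols. What was deposited is linear array intensity, 1 signal per probe set, from MAS5 per the submitters' processing notes (version and settings: not given in the sources used here). Trimmed means of 100.06 to 100.08 show that the arrays already shared a scale, and no further scaling was applied. Detection calls were not used, so a low signal may or may not exceed background. Precision is limited by the number of arrays.

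After adding an offset of 7.83, the 20th percentile of all values, log2 was taken. Controls (66 probe sets) and the dimmest 30% by mean were dropped. A gene that was dim outside 1 group could pass this filter through that group alone. Il12a, Tnfrsf9, Il10, Reg2, Pnliprp1, Zg16, Reg3g, Klk1b5 and Klk1b16 are examples, and their calls are not separate from the filter. A limma 3.58.1 model (R 4.3.3) of 3 group means over the 9 arrays, with intensity trend and 6 residual degrees of freedom, gave two-sided tests. P-values were adjusted by Benjamini-Hochberg over 8695 probe sets with a threshold of 0.05. The labels do not state that replicates were separate mice, so p-values reflect the spread among these arrays, which may be purely technical.

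Symbols came from the platform annotation: 10855 probe sets had 1, 396 had several and 1237 were unlisted. By gene ID, 10839 matched a RefSeq table of GRCm38.p6, with 0 symbols altered. A gene is represented by its brightest tested probe set. Named genes were the 20 largest called rises and 20 largest called falls, up to 6 called members of each list or, with fewer than 2 called, its 3 largest differences, all called members of lists with 5 or fewer calls, and fixed receptor, enzyme and marker genes. Others were chosen after their values were seen, among them Tapbp, Gbp2, the Ifit genes, Tnf, Il1a, Il6, Il12b, Cel, Sycn, Cela2a, the Klk1b genes other than Klk1b5, Batf, G0s2, Ptpn22, Lmnb1, Elovl5 and Acaa2. The members and the 53 gene lists, 1 of them the label's own markers, were chosen with earlier results of these data known, and lists are described by counts and medians with no test. Alternatives changed the offset, the filter, the normalization, the arrays and the model terms.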

Additional observations from a re-analysis of the deposited data

How the results depend on the processing

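The 234 probe sets called became 211 with the offset at the 5th percentile, 257 at the 40th, 200 with no filter, 222 with a filter of 50%, 235 after quantile normalization, 212 after median centring, 315 with only the 6 tumor-bearing arrays and 225 without the intensity trend. Array weights gave 1902 (1102 higher and 800 lower). Leaving out 1 array gave between 74 and 489 calls, 30 to 281 of them higher and 43 to 208 lower. With fresh 3 and cultured 3 both out 216 were higher, and with the spike-in signal as a covariate 207. With the beta-actin ratio as a covariate 441 were called (269 higher and 172 lower), and with averaged pairs 21 (4 and 17). The cause of these shifts was not tested. Whether equal replicate numbers pair the arrays could not be decided from deviations of 3 arrays per group. The deviations of same-numbered fresh and cultured arrays correlated at 0.165, 0.0286 and 0.259, and those of differently numbered ones at -0.282 to 0.227. With the number as a replicate block 258 were called (137 higher and 121 lower). Of the 96 named genes that were called, 35 stayed called in every fit without 1 array, 92 with the replicate block and 14 with averaged pairs, and none changed sign in the 24 settings. The medians of 13 gene lists moved by more than the spread between arrays in at least 1 setting. The smallest difference called in the fit reported was 1.04 on the log2 scale, and other settings called smaller ones, such as 0.99 for B2m with the beta-actin covariate. Signals near the offset have little meaning as levels.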

Other observations

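Genes in none of the lists held further called changes, chosen here after their values were seen. The proteasome subunit genes Psmb5 and Psma1 rose by 1.38 and 1.12 (limma adjusted p = 0.0158 and 0.0318), although a dimmer Psmb5 probe set gave -0.22. Atg5, part of the conjugation machinery of the autophagosome, was at 54.6, 70.0 and 45.7 fresh and at 158.0, 165.3 and 159.3 cultured (1.40 ± 0.25, adjusted p = 0.0158), and Nbr1, a cargo receptor, rose by 2.07 (adjusted p = 0.0127). The helicase gene Mov10, the galectin-binding protein gene Lgals3bp and the SLAM family receptor gene Ly9 rose by 2.08, 2.08 and 1.91 (adjusted p = 0.0127, 0.0158 and 0.00473). For these 3 cultured 3 was the highest array, at 90.9, 524.7 and 90.5. AW112010, an interferon-induced transcript among the 20 largest rises, was at 80.8, 71.2 and 106.7 fresh and at 279.5, 644.4 and 1636.7 cultured (2.86 ± 0.51, adjusted p = 0.0156, up to 0.0759 without fresh 1, fresh 2 or cultured 2). Ptcd2, a mitochondrial protein, rose by 2.70 (adjusted p = 0.00762) and Pgap2, which remodels GPI anchors, by 2.72 (adjusted p = 0.0158, up to 0.0704 without any 1 fresh array or cultured 1 or 2). Ly9 kept its call whichever array was left out. Psmb5, Psma1, Atg5, Nbr1, Mov10 and Lgals3bp each lost it without 1 or more of fresh 1, fresh 2 and cultured 2, and some of them without another array (adjusted p up to 0.0772, 0.128, 0.0792, 0.0681, 0.0675 and 0.0739).

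Surface and secreted proteins were among the falls. Thbd, thrombomodulin, was at 72.4, 80.5 and 55.2 fresh and at 9.23, 26.0 and 2.94 cultured (-2.06 ± 0.39, limma adjusted p = 0.0193), while Procr, its partner in protein C activation, rose. Cd93, a lectin-like receptor of monocytes and endothelium, fell by 2.02 (adjusted p = 0.0375). Lifr, the leukemia inhibitory factor receptor, fell by 2.03 (adjusted p = 0.0131), and by 3.20 and 2.59 at 2 further probe sets, while a dimmer one gave -0.90 with overlapping groups (adjusted p = 0.434). Napsa, an aspartic protease, was at 1457.3, 1485.0 and 1408.9 fresh and at 293.6, 368.9 and 383.8 cultured (-2.04 ± 0.30, adjusted p = 0.00537), a call that held without any single array. Thbd lost its call without fresh 1, fresh 2 or cultured 1, Cd93 without any 1 array other than tumor-free 1 and 3, and Lifr without fresh 1 or 2 (adjusted p up to 0.0892, 0.11 and 0.062).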
